A study of Homo sapiens with 6 samples.

Results

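The genes described here are a named list of 38, taken from general knowledge as direct targets of the transcription factor p53, without the BCL2 family. The list includes TRIAP1P1, which is a processed pseudogene. The members are 38 of the 58219 genes counted in 6 RNA sequencing libraries of U2OS cells, a human osteosarcoma line. The 3 libraries of the E4F1 shRNA group came from cells that received a short hairpin RNA (shRNA) against E4F1, and the 3 control shRNA libraries from cells that received a scramble shRNA. Both groups had 24 h of infection and 48 h of puromycin selection, and RNA was taken 72 h after infection. The labels call the 3 libraries of a group independent pools of cells, and they give neither the hairpin sequence nor the number of hairpins. All 38 genes were found in the annotation and 35 had enough reads to be tested.

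p53 is activated by DNA damage and other stresses, binds DNA as a tetramer at paired half-sites and raises the transcription of genes that halt the cell cycle, repair DNA, adjust metabolism or start apoptosis. One of its targets, MDM2, is the ubiquitin ligase that marks p53 for degradation and so closes a feedback loop. The zinc finger protein E4F1 regulates transcription, modifies p53 as an atypical ubiquitin ligase and has been linked to the choice of p53 targets that arrest the cell cycle. The comparison asks how the transcripts of p53 targets stand once E4F1 is depleted.

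The promoter sequences of the members show which of them carry the letters that p53 or E4F1 is known to bind close to the transcription start. RefSeq windows on GRCh38.p14, from 250 bases before to 50 bases after a start, were held for 29 members (48 windows, since several genes have more than 1 start). The p53 half-site, a motif of 10 letters with a central C and G that reads the same on both strands, was searched singly and as a pair. A near pair was taken as 2 half-sites with a spacer of at most 1 base and at most 3 mismatches in all. The central C and G of each half-site had to be kept, while the letters between them could mismatch. A near pair stood in 8 of 29 members (27.6%), against 2.91% of all 27305 genes with a window. Counted by window, the shares were 18.8% and 2.38%. Near pairs were defined after the windows had been seen, and the members were listed as p53 targets, so these shares are a description only. An exact pair with a spacer of 0 to 13 bases stood in 1 member, DDB2, and in 10 genes in all. The near pairs of DDB2, AEN, MDM2, FAS, SESN1 and FDXR are shown 5′ to 3′ on the gene's strand with the half-sites in capitals and 20 bases on either side.
DDB2 (chr11:47214959-47215019, plus strand): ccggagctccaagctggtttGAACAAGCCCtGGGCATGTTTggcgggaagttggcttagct
AEN (chr15:88621286-88621345, plus strand): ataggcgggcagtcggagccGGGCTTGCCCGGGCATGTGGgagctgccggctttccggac
MDM2 (chr12:68808903-68808962, plus strand): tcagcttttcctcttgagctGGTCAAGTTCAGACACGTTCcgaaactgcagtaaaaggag
FAS (chr10:88991289-88991348, plus strand): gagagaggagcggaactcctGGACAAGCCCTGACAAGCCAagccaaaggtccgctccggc
SESN1 (chr6:109008998-109009057, minus strand): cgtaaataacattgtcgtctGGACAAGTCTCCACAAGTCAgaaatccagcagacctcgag
FDXR (chr17:74872976-74873035, minus strand): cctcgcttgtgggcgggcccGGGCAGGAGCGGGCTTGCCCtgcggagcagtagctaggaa
The other 2 members with a near pair were GDF15 and RPS27L. Of these 8 members DDB2, AEN, SESN1 and FDXR were lower in E4F1 shRNA cells, and MDM2, FAS, GDF15 and RPS27L did not pass the test. The stretches belong to genes with a change and to genes without a call alike. A match describes letters in this window only, and sites elsewhere in these genes were not searched.

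The core TGACGT, which E4F1 and factors of the CREB and ATF families are known to bind, was searched on both strands. It stood in the windows of 7 of 29 members (24.1%), against 9.64% of all genes with a window. Members with several starts have more windows in which to match, and counted by window the shares were 14.6% and 7.98%. The stretches of PLK2, PPM1D, PRDM1 and PTP4A1 are shown, with the core and any overlapping copy on the other strand in capitals, because they include members that were lower and members that were higher.
PLK2 (chr5:58460138-58460183, minus strand): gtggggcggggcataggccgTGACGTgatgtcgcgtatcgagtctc
PPM1D (chr17:60600112-60600159, plus strand): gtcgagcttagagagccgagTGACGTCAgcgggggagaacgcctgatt
PRDM1 (chr6:106098846-106098891, plus strand): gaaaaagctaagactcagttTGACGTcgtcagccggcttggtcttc
PTP4A1 (chr6:63572331-63572376, plus strand): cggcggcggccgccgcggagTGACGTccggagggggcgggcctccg
The other members with the core were ANKRA2, TIGAR and XPC. Of the 7, PLK2, PPM1D and TIGAR were lower in E4F1 shRNA cells, PRDM1 and PTP4A1 were higher, and ANKRA2 and XPC did not pass the test.

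The libraries held 16169103, 16892139 and 16159934 reads in genes for E4F1 shRNA and 14947085, 16284450 and 15625332 for control shRNA. Levels are given as CPM, the read count of a gene relative to the library's total in genes after TMM scaling between libraries. E4F1 itself had 3.18, 3.15 and 2.502 CPM in E4F1 shRNA libraries 1 to 3, against 15.6, 17.7 and 19.1 CPM in control libraries 1 to 3 (5.92-fold lower, edgeR adjusted p = 7.66e-10). Of markers of mesenchymal cells, VIM and SPARC stood at 1173 CPM or more in every library and RUNX2 at 25.4 CPM or more, while COL1A2 was under 1 CPM and TWIST1 had no read. VIM was lower in E4F1 shRNA cells (log2 −0.25, edgeR adjusted p = 0.00494). The tested epithelial markers summed to 13.8 to 15.7 CPM in E4F1 shRNA and 13.4 to 15.4 CPM in control libraries. Among them EPCAM was higher (log2 0.43, edgeR adjusted p = 0.0229) and CDH1 lower (log2 −0.41, edgeR adjusted p = 0.0442) in E4F1 shRNA cells, and their part in the results was not tested. The tested blood markers summed to 2.97 to 3.97 CPM in E4F1 shRNA libraries, against 2.28, 6.56 and 2.44 CPM in control libraries 1 to 3, so control library 2 was the highest, and CD3E had no read. The only endothelial marker tested had at most 1.55 CPM. Control library 2 lay nearer to the E4F1 shRNA libraries than the other controls did: the SD over genes of its log2 difference from them was 0.352 to 0.363, against 0.379 to 0.468 for controls 1 and 3, so each control library is given on its own. In bulk RNA, fewer cells that express a gene and less RNA per cell cannot be told apart.

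More p53 targets were lower than higher in E4F1 shRNA cells. Of the 35 members tested, 18 were lower, 3 were higher and 14 did not pass the test (edgeR's quasi-likelihood test, adjusted p under 0.05 over all 15765 genes tested). That is 51.4% lower and 8.57% higher, beside a background over all genes of 14.4% lower and 14.4% higher. The counts by role below stand beside the same background. The changes were small: the median log2 fold change of the members was −0.19, against −0.01 over all genes, and the members ranged from −0.78 for BTG2 to 0.81 for PRDM1. All 3 E4F1 shRNA libraries lay below all 3 controls for 11 members, where the background over all genes was 21.1%, and above them for 4, where it was 20.7%. Leaving out single libraries moved the lower count of members to 10 without E4F1 shRNA library 1, to 9 without E4F1 shRNA library 2 and to 10 without control library 3. Over all genes tested, 1419 of 16138, 1426 of 16155 and 1503 of 16085 were lower in those fits, against 2276 of 15765 with all libraries. Without control library 2 the count was 22 members, beside 2537 of 16092 genes. The calls of 9 of the 18 lower and 2 of the 3 higher members held whichever of the 6 libraries was left out. The same was not counted over all genes, so this share has no background. Each of the 35 members tested had at least 58 reads in every library, so that none passed the filter through 1 group alone.

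**Figure D1:**
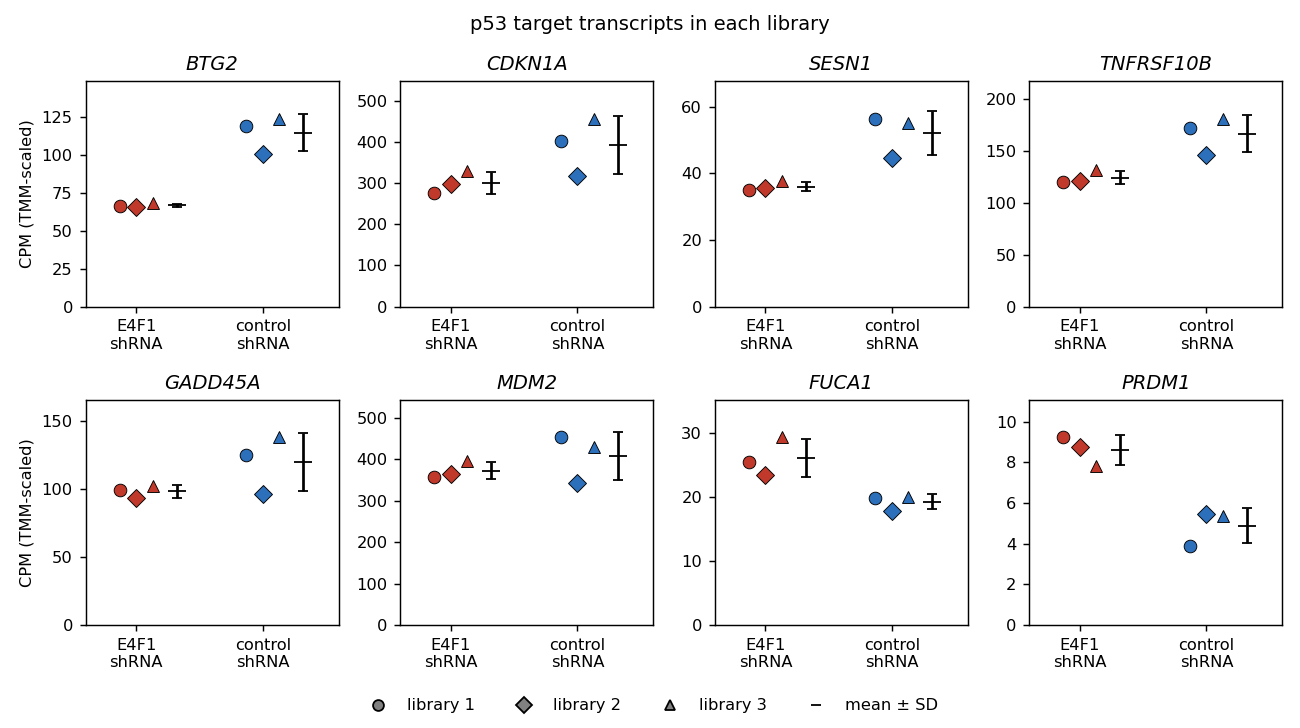
CPM (read counts relative to the TMM-scaled library total) of 8 p53 targets in each library, with E4F1 shRNA in red on the left and control shRNA in blue on the right; circles, diamonds and triangles are libraries 1, 2 and 3, and the black bar is the mean ± SD (n = 3). BTG2, SESN1 and TNFRSF10B do not overlap between groups, control library 2 of GADD45A lies within the E4F1 shRNA values and that of MDM2 below them, and FUCA1 and PRDM1 are higher in E4F1 shRNA cells.

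Genes of cell cycle arrest held the largest fall, with 5 of 7 lower and none higher. BTG2 (chromosome 1, 203305491 to 203309602, plus strand), an antiproliferative protein that recruits the CCR4-NOT deadenylase, had 66.0, 65.6 and 68.0 CPM in E4F1 shRNA libraries 1 to 3, against 119, 101 and 124 CPM in control libraries 1 to 3. All E4F1 shRNA values lay far below the lowest control, which was library 2. The mean was 1.72-fold lower (log2 −0.78, SE 0.07, edgeR adjusted p = 4.66e-07). CDKN1A (chromosome 6, 36676460 to 36687339, plus strand), which encodes the cyclin-dependent kinase inhibitor p21, had 275, 297 and 329.6 CPM in E4F1 shRNA libraries, against 403, 317 and 456 CPM in control libraries. Controls 1 and 3 stood above every E4F1 shRNA library, and control 2 stood between E4F1 shRNA libraries 2 and 3. The fall came to −0.38 on the log2 scale (SE 0.10; edgeR adjusted p = 0.00603), and DESeq2's Wald test gave the same size with an adjusted p of 0.0783.

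The polo-like kinase genes of the stress response did not overlap between groups. PLK2 had 264, 265 and 259 CPM in E4F1 shRNA libraries, against 332, 316 and 336 CPM in control libraries (log2 −0.32, SE 0.05, edgeR adjusted p = 0.00017). PLK3 had 23.2, 20.2 and 25.6 CPM in E4F1 shRNA libraries, against 33.1, 29.6 and 35.9 CPM in control libraries (log2 −0.51). For both genes the lowest control was library 2, and it still lay above the highest E4F1 shRNA library. GADD45A, a stress-induced protein that binds PCNA and CDK1, had 99.2, 93.2 and 102 CPM in E4F1 shRNA libraries, against 125, 96.5 and 138 CPM in control libraries. Its control library 2 lay between E4F1 shRNA libraries 1 and 2, and the call (log2 −0.29, edgeR adjusted p = 0.0264) was lost on leaving out any single library other than control 2 and in DESeq2 (adjusted p = 0.165). CCNG1, the cyclin G1 gene, was the most abundant member per exon length, at 150.5 CPM per kb in E4F1 shRNA and 157 CPM per kb in control cells. It did not pass the test (log2 −0.06, edgeR adjusted p = 0.489), nor did ANKRA2, an ankyrin repeat gene (log2 −0.19, 0.202).

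Of 11 genes of death receptors and apoptosis, 8 were tested, 5 were lower and none was higher. TNFRSF10B, the TRAIL receptor DR5, had 120.4, 121 and 131 CPM in E4F1 shRNA libraries, against 172, 146 and 181 CPM in control libraries (log2 −0.42, SE 0.07, edgeR adjusted p = 0.000248). SUSD6, a membrane protein with a sushi domain, had 30.2, 27.2 and 35.0 CPM in E4F1 shRNA libraries, against 46.2, 36.2 and 51.0 CPM in control libraries (log2 −0.53). Neither gene overlapped between groups, and control 2 was the lowest control for both. AEN, an apoptosis-enhancing nuclease, had 154, 168 and 177 CPM in E4F1 shRNA libraries, against 190.4, 183 and 213 CPM in control libraries (log2 −0.23). TP53I3, a quinone oxidoreductase, had 77.7, 76.2 and 87.8 CPM in E4F1 shRNA libraries, against 98.96, 87.5 and 109 CPM in control libraries (log2 −0.29). PHLDA3, a repressor of the kinase AKT, had 66.3, 72.4 and 88.8 CPM in E4F1 shRNA libraries, against 86.8, 89.0 and 98.5 CPM in control libraries (log2 −0.27). All E4F1 shRNA values of AEN lay below the controls, whereas E4F1 shRNA library 3 overlapped with a control for TP53I3 and PHLDA3, and the calls of all 3 were lost in at least 1 fit without a library.

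The other death receptor genes did not pass the test. FAS had 61.9, 59.0 and 65.1 CPM in E4F1 shRNA libraries, against 74.3, 58.6 and 82.0 CPM in control libraries (log2 −0.21, edgeR adjusted p = 0.0968). Here control 2 was the lowest of all 6 libraries while controls 1 and 3 were the highest. FAS passed without control library 2 (log2 −0.32, edgeR adjusted p = 0.000337), with no filter on low counts (0.0367) and with the replicate number as a block (0.0281). EDA2R, a receptor for ectodysplasin A2, had log2 −0.07 (SE 0.08), and the decoy receptor gene TNFRSF10C had 3.62 to 4.70 CPM in E4F1 shRNA and 4.02 to 5.72 CPM in control libraries (log2 −0.17, SE 0.17). Not tested for lack of reads were TNFRSF10A, the TRAIL receptor DR4, with 2 reads over the 6 libraries, SPATA18, a regulator of mitochondrial quality, with 6 reads, and TRIAP1P1, a processed pseudogene on chromosome 10 (27378138 to 27378362, minus strand), with 0 reads. Its parent gene TRIAP1 is in the list of further targets below and had log2 −0.13 (edgeR adjusted p = 0.192).

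Of 5 feedback and stability regulators, 2 were lower and none was higher, and their median log2 fold change was −0.13. PPM1D, the phosphatase WIP1 that dephosphorylates p53 and its kinases, had 181, 176 and 176 CPM in E4F1 shRNA libraries, against 204, 185 and 213 CPM in control libraries (log2 −0.18, edgeR adjusted p = 0.0276), with no overlap. TP53INP1, a p53 cofactor that also acts in autophagy, had 55.7, 51.3 and 63.8 CPM in E4F1 shRNA libraries, against 79.2, 57.8 and 74.7 CPM in control libraries (log2 −0.31, edgeR adjusted p = 0.0246), and its control library 2 fell within the E4F1 shRNA values. The call of PPM1D was lost on leaving out any single library other than control 2, and that of TP53INP1 when E4F1 shRNA library 1 or 2 or control library 1 or 3 was left out. MDM2 (chromosome 12, 68808176 to 68850686, plus strand) had 357, 364 and 396 CPM in E4F1 shRNA libraries, against 453, 343 and 429 CPM in control libraries. Control library 2 was the lowest of the 6 and controls 1 and 3 the highest, and the gene did not pass (log2 −0.13, SE 0.08, edgeR adjusted p = 0.2215). It passed without control library 2 (log2 −0.24, edgeR adjusted p = 0.0026), as did ZMAT3, an RNA-binding zinc finger protein (log2 −0.10 with all libraries and −0.18 without control 2, edgeR adjusted p = 0.0246). FBXW7, a substrate receptor of the SCF ubiquitin ligase, had log2 −0.07 (SE 0.07).

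Of 5 genes of DNA repair and nucleotide supply, 2 were lower and none higher, and their median log2 fold change was −0.10. DDB2, which recognises ultraviolet damage, had 104, 102 and 101 CPM in E4F1 shRNA libraries, against 111, 117 and 118 CPM in control libraries (log2 −0.17, edgeR adjusted p = 0.0202). It was 1 of the 2 members called lower whose control library 2 was not the lowest control, the other being PHLDA3, and its call was lost without E4F1 shRNA library 1, 2 or 3, without control library 3 and with no filter on low counts (edgeR adjusted p = 0.0716). RRM2B, the p53-induced subunit of ribonucleotide reductase, had 314, 343 and 337 CPM in E4F1 shRNA libraries, against 394, 330.0 and 409.9 CPM in control libraries (log2 −0.19, edgeR adjusted p = 0.0484). Control 2 lay between E4F1 shRNA libraries 1 and 3, and the call was lost in DESeq2 (adjusted p = 0.0520), with library totals as the scaling (0.0638), with DESeq2's size factors in edgeR (0.0540) and without any library other than control 2. XPC, the partner of DDB2 in damage recognition, had 95.9, 89.2 and 90.9 CPM in E4F1 shRNA libraries, against 89.9, 90.9 and 94.5 CPM in control libraries, and the groups overlapped (log2 0.00, SE 0.06). POLH, the translesion polymerase eta, had log2 0.02 (SE 0.06), and RPS27L, a paralogue of a ribosomal protein gene, −0.10 (SE 0.05, edgeR adjusted p = 0.191).

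In metabolism, redox and autophagy, 4 of 5 members were lower and 1 was higher. SESN1 (chromosome 6, 108986437 to 109094819, minus strand), a sestrin that restrains mTORC1, had 34.9, 35.5 and 37.7 CPM in E4F1 shRNA libraries, against 56.5, 44.5 and 55.3 CPM in control libraries (1.44-fold lower, log2 −0.53, SE 0.08, edgeR adjusted p = 0.000165). FDXR, the mitochondrial ferredoxin reductase, had 78.6, 85.7 and 98.3 CPM in E4F1 shRNA libraries, against 119, 104 and 138 CPM in control libraries (log2 −0.46). DRAM1, a lysosomal membrane protein of autophagy, had 36.1, 38.01 and 38.6 CPM in E4F1 shRNA libraries, against 49.9, 41.9 and 51.6 CPM in control libraries (log2 −0.35). In all 3 genes the lowest control was library 2, and no E4F1 shRNA library reached it. TIGAR, a fructose bisphosphatase that diverts sugar from glycolysis, had 118.4, 118.2 and 126 CPM in E4F1 shRNA libraries, against 149.6, 117.9 and 155 CPM in control libraries (log2 −0.22, edgeR adjusted p = 0.0432). Its control library 2 was the lowest of the 6 libraries, and the call was lost with library totals as the scaling (edgeR adjusted p = 0.0613) and on leaving out any library other than control 2. In release 29 of the annotation 42.6% of the exon bases of TIGAR also belong to another gene on the same strand, and whether the annotation used for counting held that gene is not known. FUCA1 (chromosome 1, 23845077 to 23868294, minus strand), a lysosomal fucosidase, was higher, with 25.5, 23.4 and 29.4 CPM in E4F1 shRNA libraries, against 19.8, 17.9 and 20.1 CPM in control libraries (1.36-fold, log2 0.44, SE 0.09, edgeR adjusted p = 0.00202).

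The members with roles in secretion, transcription and signalling held the other 2 rises and no fall. PRDM1 (chromosome 6, 106086320 to 106109939, plus strand), the transcriptional repressor BLIMP1, had 9.23, 8.74 and 7.81 CPM in E4F1 shRNA libraries, against 3.88, 5.44 and 5.34 CPM in control libraries (1.75-fold, log2 0.81, SE 0.15, edgeR adjusted p = 0.000559). It was the least abundant member tested per exon length, at 1.35 CPM per kb in E4F1 shRNA and 0.765 CPM per kb in control cells. PTP4A1, the phosphatase PRL-1, had 588, 602 and 589 CPM in E4F1 shRNA libraries, against 531, 483 and 542 CPM in control libraries (log2 0.19, edgeR adjusted p = 0.0127, and 0.0611 without E4F1 shRNA library 2). For both genes and FUCA1 the lowest E4F1 shRNA value lay above the highest control. In release 29 of the annotation 79.0% of the exon bases of PTP4A1 are shared with another gene on its strand. Besides TIGAR, exon bases are also shared for PHLDA3 (19.1%), TNFRSF10C (26% and 13.3%, with different genes), TRIM22 (10.7%) and MDM2 (3.3%). KITLG, the ligand of the receptor KIT, also did not overlap but did not pass, with 78.2, 79.6 and 78.4 CPM in E4F1 shRNA libraries, against 75.5, 69.2 and 71.2 CPM in control libraries (log2 0.13, edgeR adjusted p = 0.101). GDF15, a stress-induced cytokine, varied most within a group, with 9.55, 11.8 and 16.8 CPM in E4F1 shRNA libraries, against 16.9, 13.5 and 19.9 CPM in control libraries (log2 −0.39, SE 0.16, edgeR adjusted p = 0.0817). It passed without E4F1 shRNA library 3 (edgeR adjusted p = 0.00953) and without control library 2 (0.00642), with no filter on low counts (0.00385) and with the replicate number as a block (0.00852). TRIM22, an interferon- and p53-induced gene, had log2 −0.05 (SE 0.06).

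Control library 2 stood apart from controls 1 and 3 for most members. It was the lowest control for 29 of 35 members (82.9%), against 34.6% of all genes tested, and the control nearest to the E4F1 shRNA mean for 28 of 35 (80.0%), against 45.1%. Controls 1 and 3 both lay above all 3 E4F1 shRNA libraries for 26 of 35 members (74.3%), against 28.4% of all genes. Control 2 lay above all 3 for 12 members (34.3%), within their range for 13 (37.1%) and below them for 10 (28.6%), which is close to the 35.1%, 32.2% and 32.7% of all genes. Relative to the mean of the E4F1 shRNA libraries, the median log2 level of the members was −0.03, −0.03 and 0.06 in E4F1 shRNA libraries 1 to 3 and 0.25, 0.01 and 0.36 in control libraries 1 to 3. The SD of log2 CPM within a group had a median of 0.0716 between E4F1 shRNA libraries and 0.157 between control libraries for the members, against 0.0677 and 0.0831 for the 10483 genes of average log2 CPM of at least 3.

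**Figure D2:**
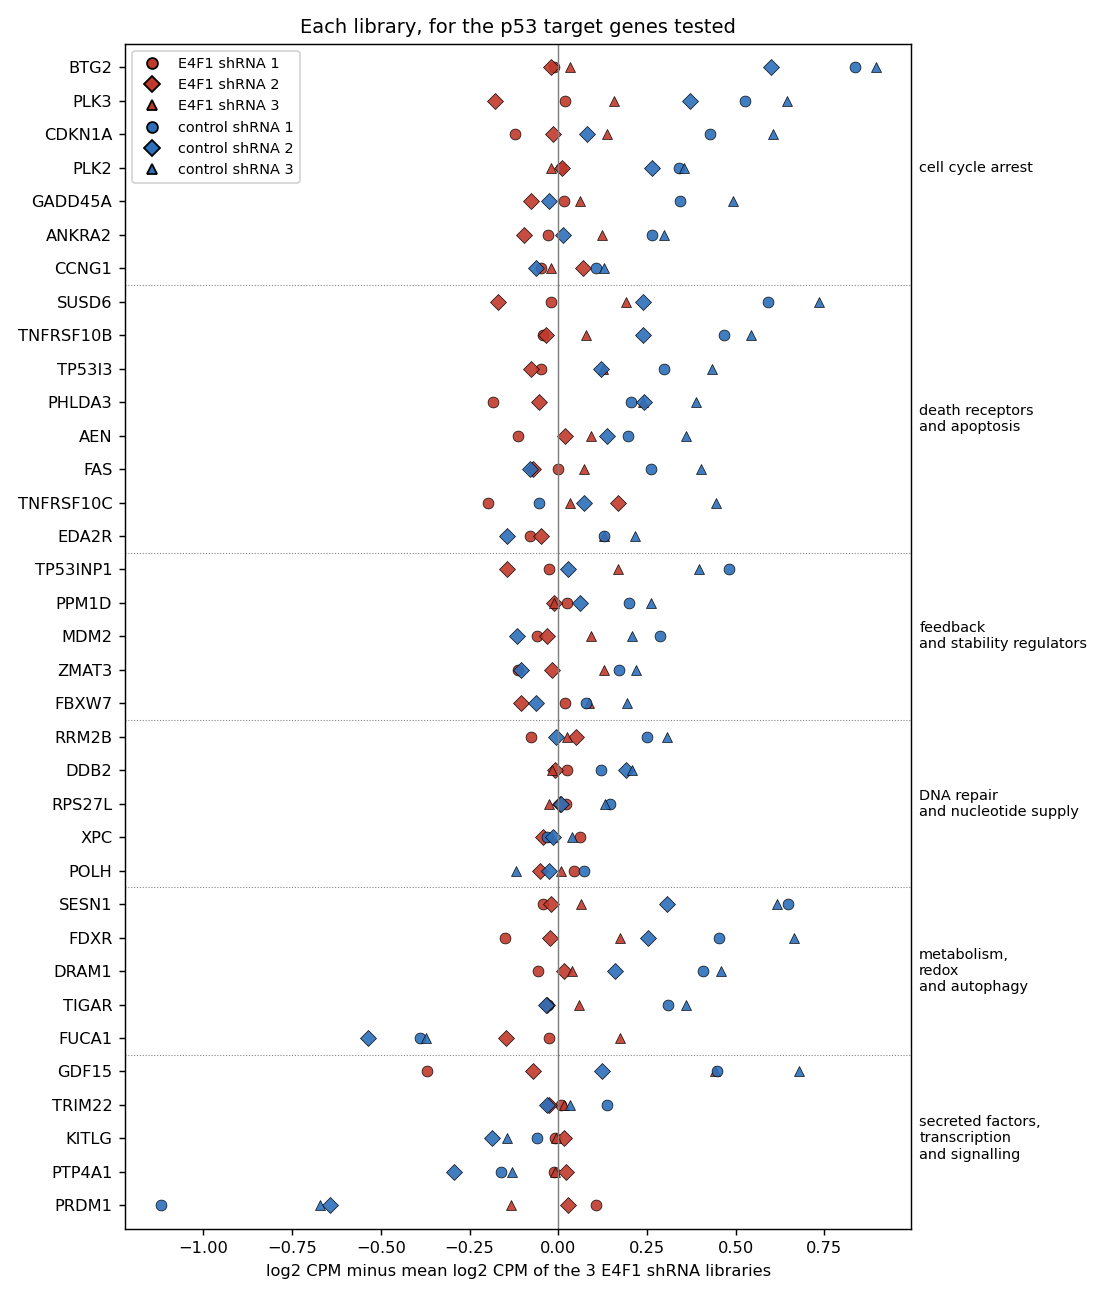
Log2 CPM of each of the 6 libraries minus the mean log2 CPM of the 3 E4F1 shRNA libraries, for the 35 p53 targets tested, grouped by role; red symbols are E4F1 shRNA, blue symbols control shRNA, and circle, diamond and triangle are libraries 1, 2 and 3. The blue diamonds (control library 2) have a median of 0.01 but spread widely, with BTG2 at 0.60 and PRDM1 at −0.64, and the other controls have medians of 0.25 and 0.36.

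Control library 2 was singled out for its nearness to the E4F1 shRNA libraries, so leaving it out favours a wider difference and is given as a description. The log2 fold change narrowed for DDB2, FUCA1, PTP4A1 and KITLG and moved further from 0 for every other member tested. Without it 22 members were lower and 3 higher, beside a background of 15.8% lower and 17.6% higher over all genes tested in that fit. All 21 calls made with 6 libraries were kept, and MDM2, FAS, GDF15 and ZMAT3 were added. The log2 fold change of CDKN1A was then −0.51 (edgeR adjusted p = 1.32e-06) and that of BTG2 −0.86. Of the 18 members called lower with all libraries, control 2 lay above every E4F1 shRNA library for 12, within their range for CDKN1A, GADD45A, RRM2B, TP53I3 and TP53INP1, and below it for TIGAR. The share within the range was 27.8% of these members, against 4.53% of all genes called lower. Control 2 was the control nearest to the E4F1 shRNA mean for 88.9% of these members, against 58.4% of all genes called lower.

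Cell cycle transcripts moved in the opposite direction to the p53 targets across libraries. Of a list of 30 replication and mitosis genes, 19 were higher (63.3%) and none lower, beside a background over all genes of 14.4% higher and 14.4% lower. Among the higher ones were ORC6, RFC4, CENPE and RRM2. The mean log2 CPM of this list relative to the 6 libraries was 0.18, 0.18 and 0.07 in E4F1 shRNA libraries 1 to 3. In control libraries 1 to 3 it was −0.18, 0.05 and −0.30. The list summed to 8629 to 9309 CPM in E4F1 shRNA libraries and 6738 to 8415 CPM in control libraries. The 35 p53 targets lay at −0.13, −0.12 and −0.01 in E4F1 shRNA libraries and at 0.12, −0.06 and 0.20 in control libraries. Control 2 and E4F1 shRNA library 3 thus stood next to each other on both lists. When the mean of the cell cycle list entered the fit as a covariate, 2 members were lower and 2 higher, beside a background of 2.62% lower and 3.84% higher over all genes, and the median log2 fold change of the members was 0.06. The members that kept their calls were BTG2 (log2 −0.54, edgeR adjusted p = 3.68e-05), PLK2 (log2 −0.26, 0.0260), FUCA1 (log2 0.66, 0.00202) and PTP4A1 (log2 0.31, 0.00872). PRDM1 lost its call with a log2 fold change of 0.64 (edgeR adjusted p = 0.102), and DDB2 lost its call at −0.18 (0.191), against −0.17 without the covariate. CDKN1A had log2 0.07 in that fit and SESN1 −0.25 (edgeR adjusted p = 0.155). The covariate differs between the groups as well, and which of the lists leads the other was not tested.

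**Figure D3:**
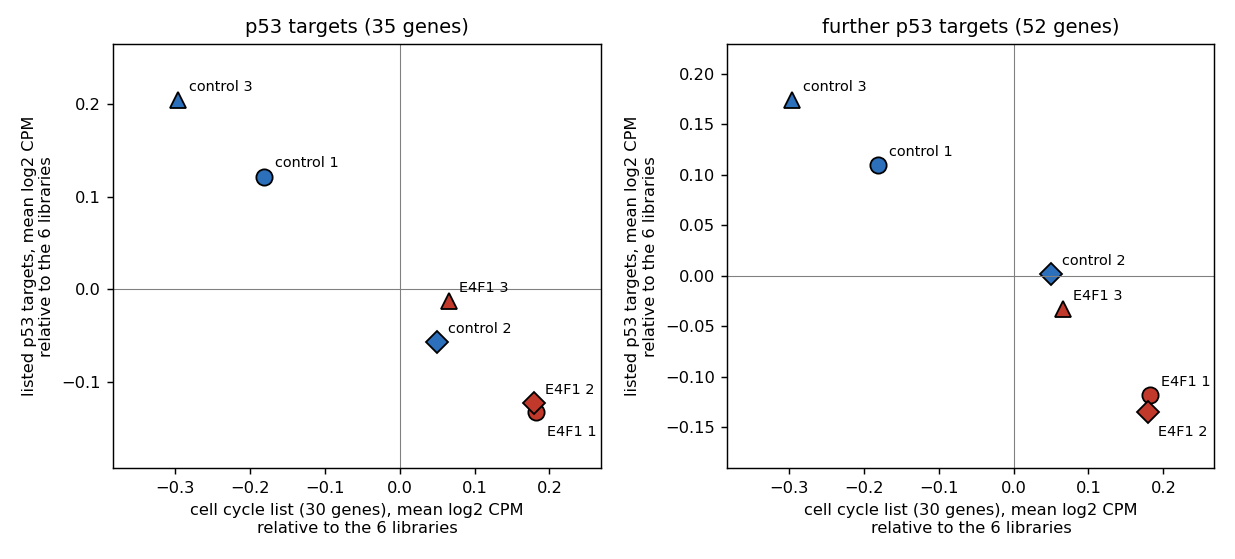
Mean log2 CPM relative to the 6 libraries of the cell cycle list (x axis) and of the 35 p53 targets (left panel, y axis) or of 52 further p53 targets (right panel, y axis), with 1 point per library. Control libraries 1 and 3 lie at the upper left and E4F1 shRNA libraries 1 and 2 at the lower right, and control library 2 lies next to E4F1 shRNA library 3.

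**Figure D4:**
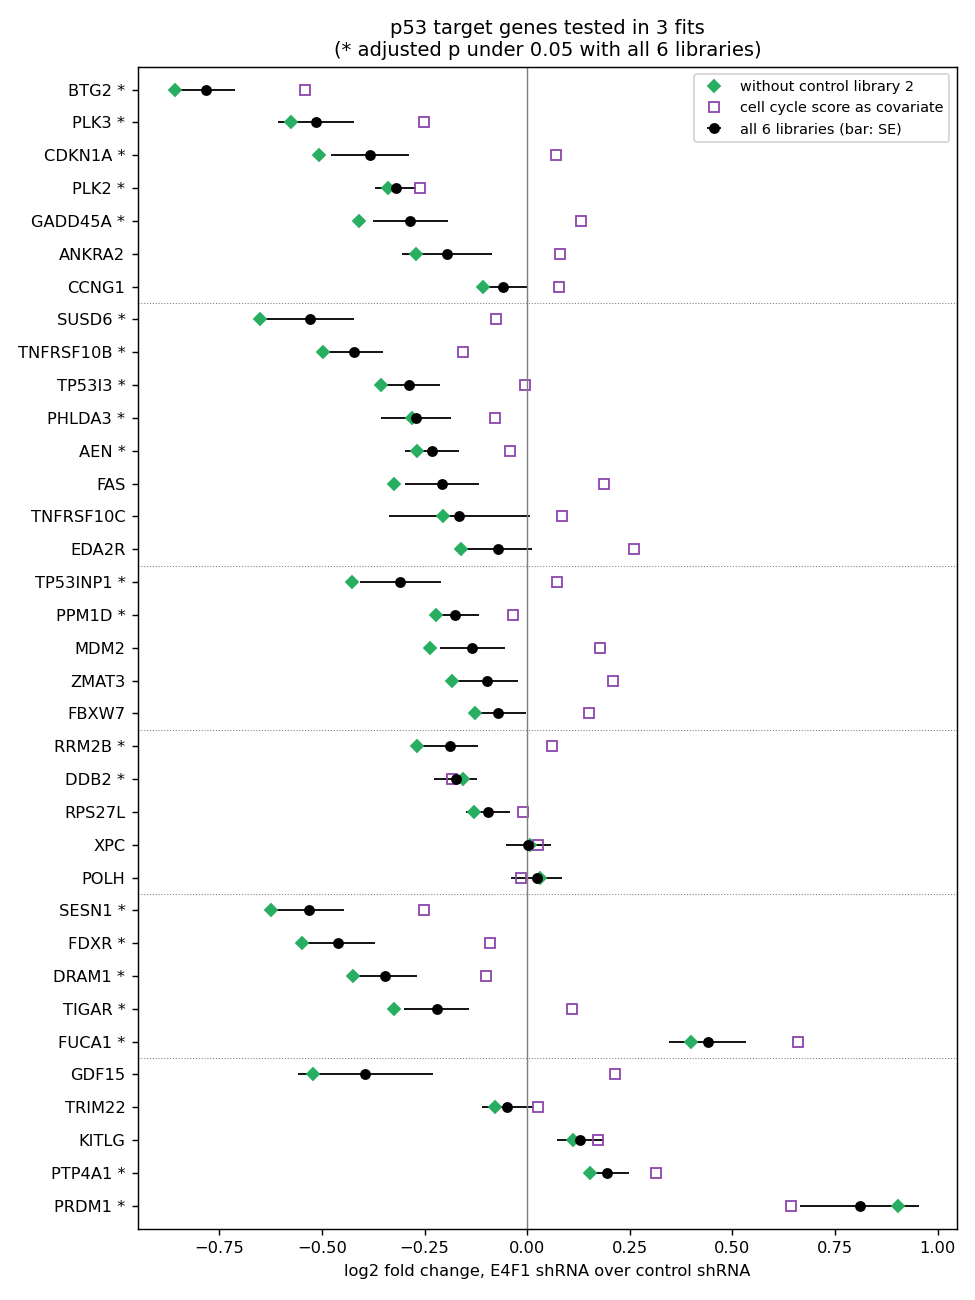
Log2 fold change, E4F1 shRNA over control shRNA, of the 35 p53 targets tested, with all 6 libraries (black, bar = SE), without control library 2 (green) and with the mean of the cell cycle list as covariate (purple squares). BTG2 lies at −0.78, −0.86 and −0.54 in the 3 fits and PLK2 at −0.32, −0.34 and −0.26, whereas CDKN1A lies at −0.38, −0.51 and 0.07.

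Further p53 targets and p53's own regulators were read beside the members. The 59 further targets were listed from general knowledge, but with earlier results of these data known, so they are no independent repeat. Of these, 52 were tested, 22 were lower (42.3%) and 3 were higher (5.77%). The background over all genes was 14.4% lower and 14.4% higher. The median log2 fold change of the further targets was −0.21. Among the lower ones were NADSYN1, an NAD synthetase (log2 −0.46), the potassium-chloride cotransporter gene SLC12A4 (log2 −0.38), TM7SF3 (log2 −0.37) and RALGDS, an exchange factor for Ral (log2 −0.45). The higher ones were TNFAIP8 (log2 0.84), BLOC1S2 (log2 0.29) and SESN2, the sestrin paralogue that ATF4 also induces (log2 0.21). In this list control 2 was again nearest to the E4F1 shRNA libraries, with a mean of 0.002 relative to the 6 libraries, against 0.11 and 0.17 in controls 1 and 3 and −0.12, −0.13 and −0.03 in E4F1 shRNA libraries 1 to 3.

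Genes that control p53 went both ways. Of 30 regulators listed, 29 were tested, 3 were lower (10.3%) and 4 higher (13.8%). This is near the background of 14.4% lower and 14.4% higher over all genes, and the median log2 fold change of the regulators was 0.03. The checkpoint kinase gene CHEK1 (log2 −0.34), PPP1R13L, the p53 inhibitor iASPP (log2 −0.34), and OTUB1, a deubiquitinase (log2 −0.18), were lower. The ubiquitin ligase genes TRIM24 (log2 0.40) and COP1 (log2 0.20), TP53BP2, the p53 activator ASPP2 (log2 0.29), and USP7, which deubiquitinates MDM2 and p53 (log2 0.20), were higher. MDM4, the partner of MDM2, had 61.8, 56.8 and 67.9 CPM in E4F1 shRNA libraries, against 60.02, 59.1 and 52.9 CPM in control libraries (edgeR adjusted p = 0.254). CDKN2A, whose product ARF inhibits MDM2, had 1 read in E4F1 shRNA library 1 and 1 in control library 3.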

How the data were processed

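U2OS libraries of polyadenylated RNA were compared in 2 groups of 3. The deposited tables hold raw read counts per gene, in 3 columns that differ in the use of strand, as STAR writes them. The submitters' processing notes name bcl2fastq 2.20, STAR 2.5.1b and the build GRCh38, while the release of the annotation was not found in the labels. The reverse-strand column was used: its totals in genes were 14947085 to 16892139, and those of the forward-strand column 885046 to 977742. Rows for reads in no gene (27.1% to 31.7% of a table) were left out of library sizes and tests. Symbols and exon lengths came from GENCODE release 29, which matched 57881 of 58219 identifiers without the version.

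The counts were fitted with edgeR 4.0.16 (R 4.3.3): filterByExpr by group, TMM scaling and a two-sided quasi-likelihood F-test of the group term, which had no covariates, with Benjamini-Hochberg adjustment over 15765 genes. The steps were checked on simulated counts. P-values measure the spread between the labelled pools, and an exact permutation test of 3 against 3 cannot go below p = 0.1. Log2 CPM used a prior count of 2. Other settings tried were DESeq2 1.42.0, its size factors within edgeR, library totals, no or a stricter filter (1 CPM in 3 libraries), counts ignoring strand, the replicate number as a block, a cell cycle score as a covariate and leaving out each library. Near p53 pairs were defined after the promoter windows had been seen.

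The members, the other lists and the cell cycle covariate were chosen with earlier results of these data known, so the lists are no independent evidence of direction. Named were all members, E4F1 and up to 4 called genes per direction of each further list; 1 other gene of this rule is not reported here. Other genes (TRIAP1, MDM4, CDKN2A and markers) were named after their values were seen.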

Additional observations from a re-analysis of the deposited data

How the results depend on the processing

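With 18 of 35 p53 targets lower and 3 higher with all libraries, the lower count was 15 to 20 and the higher count 3 under DESeq2's test or size factors, library totals, either other filter, counts ignoring strand and the replicate block. Over all genes, 1757 to 2446 were lower and 1971 to 2419 higher in these settings. With no filter 37 members were tested and 19 were lower, beside 2096 of 33827 genes. Leaving out a library gave 9 to 22 lower and 2 to 3 higher members, 1419 to 2537 genes lower over all genes and a median log2 fold change of −0.27 to −0.14. When the mean of the cell cycle list was a covariate, 2 members were lower, 413 genes were lower and 606 higher over all genes (2276 and 2274 without it), and the median of the members was 0.062, a reversed sign; the cause was not tested. In that fit the log2 fold changes of CDKN1A (0.070), MDM2 (0.18), FAS (0.19), GDF15 (0.21), RRM2B (0.062), ZMAT3 (0.21), TP53INP1 (0.071), TIGAR (0.11), GADD45A (0.13), CCNG1 (0.077), TNFRSF10C (0.085), FBXW7 (0.15), TRIM22 (0.026), EDA2R (0.26) and ANKRA2 (0.080) turned positive and that of POLH negative (−0.014), none past the threshold. Uncalled values near 0 also changed sign for XPC with the stricter filter (−0.00011) and for 4 genes on leaving out a library, with a range of −0.019 to 0.029 for XPC, −0.024 to 0.085 for POLH, −0.077 to 0.011 for TRIM22 and −0.16 to 0.0048 for EDA2R. The labels do not say whether the replicate numbers pair the libraries. Deviations from the group means of same-numbered libraries correlated at 0.007, 0.047 and 0.048 over 15765 genes. Those of libraries with unlike numbers correlated at −0.108 to 0.077. Pairing was thus not seen, but values this weak from groups of 3 cannot exclude it. With the replicate block 20 members were lower and 3 higher and the median was −0.19; it kept all 21 calls and added FAS and GDF15. The members' median moved by less than its pooled SD between libraries of 0.110 in every fit without a library. That SD includes the distance of control library 2 from the other controls, so it sets a wide limit. Of the members tested, TNFRSF10C had the fewest reads, 427 over the 6 libraries.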
